A study of Mus musculus with 6 samples.

Results

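Small leucine-rich proteoglycans (SLRPs) are secreted proteins of the extracellular matrix built from a row of leucine-rich repeats, and most of them carry 1 or more glycosaminoglycan chains. They lie on the surface of collagen fibrils and influence how thick and how regular the fibrils become, and several of them bind growth factors such as TGF-β. In the gut they are products mainly of fibroblasts in the lamina propria, the submucosa and the muscle wall. The 8 genes examined here were taken by their symbols, and all 8 were found among the 17778 genes listed. *Bgn* (biglycan), *Dcn* (decorin) and *Aspn* (asporin) belong to class I of the family, *Lum* (lumican), *Fmod* (fibromodulin) and *Prelp* (prolargin) to class II, *Ogn* (osteoglycin, or mimecan) to class III and *Podn* (podocan) to class V.

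The genes were measured by RNA sequencing of colon in 3 obesity-prone (OP) and 3 obesity-resistant (OR) mice, each mouse as its own library. All 6 were wild-type male C57BL/6J mice, given the same high-fat diet (60% fat) for 16 weeks and killed at 21 weeks of age, and the groups were the upper and the lower quartile of weight gain on that diet. How the mice for sequencing were picked from each quartile was not given in the sources used here, and mice on a normal diet were not analysed here. Levels are in FPKM, a fragment count scaled by transcript length and by the mapped total of the library, so levels of different genes can be set side by side per length. Sequencing depth is not known from FPKM. Epithelial markers were present, with *Krt8* (a keratin of simple epithelium) between 2434 and 3649 FPKM in the 6 mice. The lowest size factor, the scaling that brings the median gene of a mouse to a common level, was 0.803 in OP mouse 1. The size factors of the other mice were 0.983 to 1.11.

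The family is partly arranged in runs along the chromosomes. In the RefSeq annotation of mouse, *Dcn* and *Lum* are direct neighbours among the protein-coding genes of chromosome 10, followed by *Kera* and *Epyc*. *Ecm2*, *Aspn*, *Omd* and *Ogn* follow each other on chromosome 13, and *Optc*, *Prelp* and *Fmod* on chromosome 1. *Bgn* on chromosome X and *Podn* on chromosome 4 have no family member next to them.

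Sequence upstream of the gene start was available for 6 of the 8 genes in RefSeq (GRCm38.p6), with 2 starts for *Podn*, and *Dcn* and *Lum* had no entry. The upstream stretches of *Bgn*, *Ogn* and *Aspn* are shown because they hold the ends of the range of base content among genes with a single start and a pair from the same run on chromosome 13 that differed in its pattern across the mice. Each is the 200 bases before the start, 5′ to 3′ on the coding strand, and capitals mark every match, on either strand, to the TATA box TATAAA, the GC box GGGCGG, the E-box CANNTG, the AP-1 site TGANTCA or the SMAD core CAGAC.
*Bgn*, chrX:73483401-73483600, plus strand: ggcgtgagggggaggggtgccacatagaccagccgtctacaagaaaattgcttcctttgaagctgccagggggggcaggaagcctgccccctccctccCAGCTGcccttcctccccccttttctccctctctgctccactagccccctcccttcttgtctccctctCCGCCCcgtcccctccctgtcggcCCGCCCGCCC
*Ogn*, chr13:49607815-49608014, plus strand: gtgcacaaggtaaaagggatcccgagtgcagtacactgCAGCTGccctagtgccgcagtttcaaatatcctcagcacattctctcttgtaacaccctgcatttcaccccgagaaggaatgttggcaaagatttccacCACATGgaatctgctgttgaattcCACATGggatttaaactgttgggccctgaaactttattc
*Aspn*, chr13:49544243-49544442, plus strand: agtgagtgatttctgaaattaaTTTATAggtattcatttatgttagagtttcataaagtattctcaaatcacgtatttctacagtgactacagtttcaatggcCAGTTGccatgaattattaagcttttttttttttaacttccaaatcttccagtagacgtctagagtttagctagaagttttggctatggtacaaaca

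Over the 250 bases before the start, *Bgn* had a GC content of 64.4% and *Aspn* of 30.0%, with 42.0% in *Ogn*, 51.2% in *Fmod* and 55.6% in *Prelp*, against a median of 52.4% over all 32851 promoters of that table. The 2 *Podn* starts had 64.0% and 78.0%. In *Bgn* GGGCGG, the GC box, was matched at 3 places, the nearest overlapping pair within 10 bases of the start. It was also matched at 1 of the *Podn* starts, and 32.7% of all promoters hold it. TATAAA was matched at 2 places in *Aspn* and at 2 overlapping places in *Ogn*, the nearest of them ending 173 bases before the start, and 12.4% of all promoters hold it. CANNTG, the E-box, was found in each of these promoters except that of *Prelp* and in 66.2% of all. CAGAC, a core of SMAD sites, was found in *Fmod* and *Prelp* and in 42.2% of all, and TGANTCA, the AP-1 site, was found in 0 of the 7 and in 6.75% of all. These matches are letters in a window and were not compared with any measure of binding.

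*Dcn* was the most abundant member and the one that differed most between the groups. Decorin, whose single chain is chondroitin or dermatan sulphate, binds collagen fibrils and TGF-β. OP mice 1, 2 and 3 had levels of 27.89, 17.35 and 40.8 FPKM, and OR mice 1, 2 and 3 had levels of 81.13, 95.49 and 191.45 FPKM. The groups did not overlap, and OR mouse 3 was far above the other OR mice. The means were 28.7 ± 11.7 FPKM (SD, n = 3) in OP and 122.7 ± 59.98 FPKM (SD, n = 3) in OR, a ratio OR/OP of 4.28. The log2 fold change OP/OR on the log2(FPKM + 1) scale was -2.03 (standard error 0.39, 95% interval -2.95 to -1.12), with an unadjusted limma-trend p of 0.00105 and an adjusted p of 0.624 over all genes tested. A two-sided exact permutation test gave p = 0.1, the smallest that 3 mice against 3 can give. Without OR mouse 3 the log2 fold change was -1.66.

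Differences were tested with limma-trend over the 13520 genes that had at least 0.5 FPKM in at least 3 mice, with Benjamini-Hochberg adjustment, and calling a gene took an adjusted p below 0.2 together with a ratio OP/OR of 1.2 or more or of 0.83 or less. Of the 8 members 7 were tested, and each of these 7 was above the minimum in all 6 mice. *Fmod* was below it. Of the 7, 0 were called by limma-trend, where 3 of the 13520 genes, or 0.0222%, were called lower in OP. At an unadjusted p below 0.05, 4 of the 7 were lower in OP (*Bgn*, *Dcn*, *Prelp* and *Ogn*), against 3.53% of all genes tested. In the same 4 genes every OP mouse was below every OR mouse, against 6.81% of all genes tested. The log2 fold change was below 0 in all 7, as in 70.1% of all genes tested. The median log2 fold change of the 7 was -0.67 and that of all genes tested -0.10. After median-of-ratios scaling the median of all genes was 0.01 and that of the 7 was -0.54, and the 7 differences ranged from -0.24 (*Podn*) to -1.90 (*Dcn*). These genes were picked with earlier results of the same mice known, and *Bgn* and *Lum* are among the genes that the study itself drew from these mice, so their count is not independent evidence. With its own test, DESeq2, and the same thresholds, the study called more genes lower in OP than were called here. By qRT-PCR it also reported *Bgn* and *Lum* as higher in OR.

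**Figure D1:**
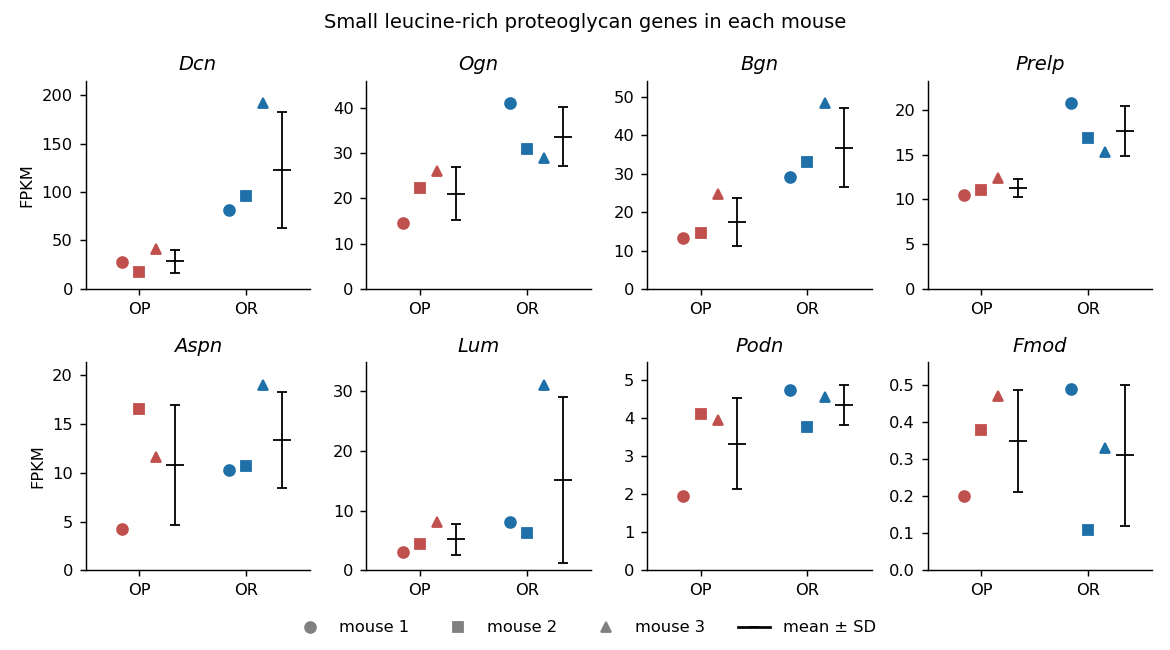
FPKM of the 8 genes in each mouse on linear axes that start at 0, with OP mice in red, OR mice in blue, the mouse number given by the symbol, and the mean ± SD (n = 3) beside each group. The groups do not overlap in *Dcn*, *Ogn*, *Bgn* and *Prelp* and overlap in *Aspn*, *Lum*, *Podn* and *Fmod*.

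*Bgn*, the close relative of *Dcn* with 2 chondroitin or dermatan sulphate chains, was lower in all OP mice. Biglycan binds collagen, and in soluble form it is known as a ligand of the receptors TLR2 and TLR4. Its levels were 13.24, 14.53 and 24.61 FPKM in OP and 29.07, 33.01 and 48.28 FPKM in OR. OP mouse 3 came close to the lowest OR mouse. The log2 fold change was -1.05 (95% interval -1.70 to -0.40, adjusted p = 0.805 by limma-trend).

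*Aspn*, the third class I gene, did not follow the other two. Asporin carries a stretch of aspartate residues in place of a glycosaminoglycan chain and binds collagen and TGF-β. It measured 4.28, 16.53 and 11.59 FPKM in the OP animals and 10.26, 10.71 and 19.0 FPKM in the OR animals. OP mouse 1 was the lowest of the 6 and OP mouse 2 the second highest, so the groups overlapped throughout. The log2 fold change of -0.39 had a 95% interval from -1.45 to 0.66, wide enough to hold a difference as large as that of *Bgn*. Without OP mouse 1 its sign turned, to 0.10.

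*Lum*, a keratan sulphate proteoglycan that spaces collagen fibrils, had a difference that shrank when a single animal was left out. Its levels were 3.04, 4.45 and 8.06 FPKM in OP and 8.03, 6.3 and 31.06 FPKM in OR. OR mouse 3 was far above the rest, while OR mice 1 and 2 lay at or below OP mouse 3. The log2 fold change was -1.14 (95% interval -2.47 to 0.20, adjusted p = 0.945 by limma-trend), and without OR mouse 3 it was -0.47. The ratio of the group means, OR over OP, was 2.92.

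*Prelp* showed a smaller and more even difference. Prolargin has a basic end that binds heparan sulphate and is thought to tie basement membranes to the collagen beneath them. It was at 10.45, 11.01 and 12.41 FPKM in the OP group and at 20.74, 16.82 and 15.29 FPKM in the OR group. The OP values lay close together, and all were below the lowest OR mouse. The log2 fold change was -0.59 (standard error 0.17, 95% interval -0.98 to -0.20, adjusted p = 0.888 by limma-trend).

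*Fmod*, which in tendon competes with lumican for collagen, was barely present. The 6 values ran from 0.11 FPKM in OR mouse 2 to 0.49 FPKM in OR mouse 1, with 0.2, 0.38 and 0.47 FPKM in the OP mice and 0.33 FPKM in OR mouse 3 between them. The means of 0.350 ± 0.138 FPKM (SD, n = 3) in OP and 0.310 ± 0.191 FPKM (SD, n = 3) in OR differed by less than the spread between mice, with a two-sided exact permutation p = 0.8. When all genes above 0 in 1 mouse were tested, its log2 fold change was 0.05 with an adjusted p of 0.963 by limma-trend.

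*Ogn* and *Prelp* had the most similar pattern of any pair of members. Osteoglycin is a class III member found around collagen fibrils in many connective tissues. Its levels were 14.64, 22.38 and 26.07 FPKM in OP and 41.04, 30.9 and 28.92 FPKM in OR. The order of the mice was the same in both genes, from OP mouse 1 as the lowest to OR mouse 1 as the highest. *Ogn* had a log2 fold change of -0.67 (95% interval -1.23 to -0.12, adjusted p = 0.945 by limma-trend). Its unadjusted limma-trend p was 0.0238 with all mice, 0.0543 without OP mouse 1 and 0.0865 without OR mouse 1, and without OP mouse 1 the log2 fold change was -0.44.

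*Podn*, the class V member, had groups that overlapped. It measured 1.95, 4.1 and 3.94 FPKM in OP and 4.75, 3.76 and 4.55 FPKM in OR. Apart from OP mouse 1 the 5 mice lay close together, and without that mouse the log2 fold change was -0.09 against -0.34 with it (95% interval -0.94 to 0.26).

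**Figure D2:**
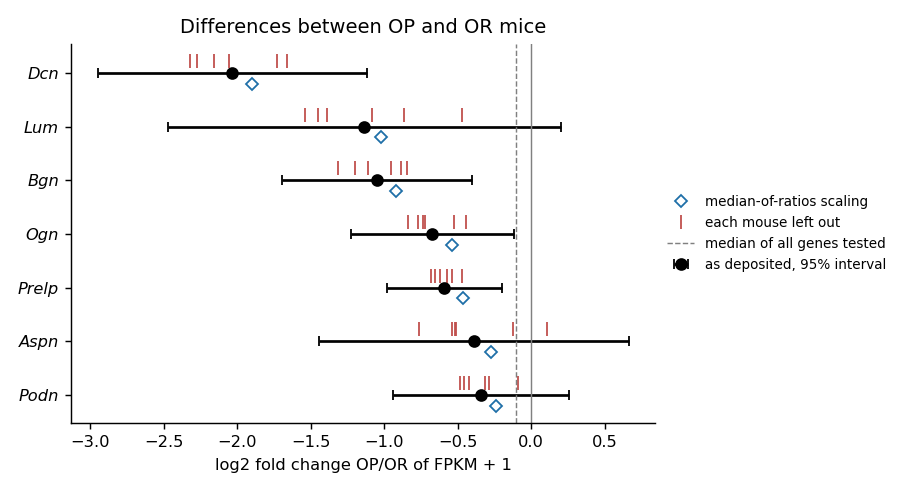
Log2 fold change OP/OR of FPKM + 1 for the 7 genes tested, with the limma-trend 95% interval (black), the value after median-of-ratios scaling (blue diamonds) and the 6 values with each mouse left out (red ticks). The intervals of *Dcn*, *Bgn*, *Ogn* and *Prelp* lie below 0, those of *Lum*, *Aspn* and *Podn* reach across it, and the dashed line is the median of all genes tested, -0.10.

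*Dcn* had the highest and *Fmod* the lowest mean level in both groups. In OR the mean FPKM ran from *Dcn* at 122.7 through *Bgn* at 36.8, *Ogn* at 33.6, *Prelp* at 17.6, *Lum* at 15.1, *Aspn* at 13.3 and *Podn* at 4.35 to *Fmod* at 0.310. In OP it ran from *Dcn* at 28.7 through *Ogn* at 21.03, *Bgn* at 17.5, *Prelp* at 11.3, *Aspn* at 10.8, *Lum* at 5.18 and *Podn* at 3.33 to *Fmod* at 0.350. Within each group the mice overlapped between *Bgn* and *Ogn*, and likewise between *Prelp* and *Aspn*. In OR mice *Dcn* stood apart, with its lowest value of 81.13 FPKM above the highest value of any other member, 48.28 FPKM. In OP mouse 2 it was below *Ogn*, at 17.35 against 22.38 FPKM.

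Summed over the 8 genes the family came to 75.7, 90.7 and 128 FPKM in OP and to 196, 197 and 339 FPKM in OR. The lowest OR mouse was thus above the highest OP mouse, and the same held with *Dcn* left out, where the sums were 47.8, 73.4 and 87.2 FPKM in OP and 114, 102 and 147 FPKM in OR. The ratio of the mean sums, OR over OP, was 2.48 with *Dcn* and 1.74 without it. As a share of the family, *Dcn* took 36.8%, 19.1% and 31.9% in OP and 41.5%, 48.4% and 56.5% in OR. *Aspn* took 5.65%, 18.2% and 9.06% in OP against 5.25%, 5.43% and 5.61% in OR, so that OP mouse 1 was at the OR level and OP mouse 2 far above it. *Bgn* kept between 14.2% and 19.2% in all 6 mice. Since the shares add up to a fixed whole, a larger share of *Dcn* lowers the others.

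**Figure D3:**
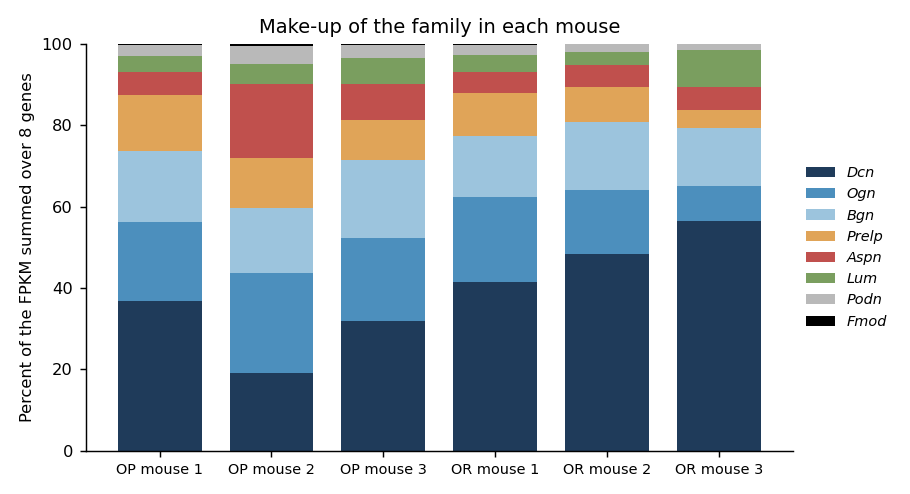
Percent of the FPKM summed over the 8 genes that each gene took, as 1 stacked bar per mouse. The *Dcn* part, at the bottom, covers 19.1% to 36.8% in the OP mice and 41.5% to 56.5% in the OR mice.

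The members were also compared with each other inside each mouse, since a ratio of 2 genes in 1 library does not move with the scaling between mice. Of the 28 ratios, 7 did not overlap between OP and OR mice, and 6 of these 7 involved *Dcn*, with *Fmod*/*Ogn* the other. No share over pairs of other genes was computed to set beside this count, and the 28 ratios share genes. By arrangement of the mice alone a ratio separates with a probability of 0.1. The log2 ratio *Bgn*/*Dcn* was -1.07, -0.26 and -0.73 in OP and -1.48, -1.53 and -1.99 in OR, a difference of 0.98. *Dcn* was thus lower in OP relative to *Bgn* as well. Relative to *Ogn*, the log2 ratio of *Dcn* was 0.93, -0.37 and 0.65 in OP and 0.98, 1.63 and 2.73 in OR, where OP mouse 1 and OR mouse 1 nearly touched. Relative to *Prelp*, *Dcn* differed by -1.44, and relative to *Aspn* by -1.63, between the group means of the log2 ratio. Each of the 7 had p = 0.1 in a two-sided exact permutation test and an adjusted p of 0.4 over the 28 pairs. With 3 mice a group no pair could go below 0.05. The count of 7 was 11 when a pseudocount of 1 was added, and 13 without OP mouse 1 or without OR mouse 1. The ratios *Dcn*/*Fmod* and *Fmod*/*Ogn* rest on *Fmod* values below 0.5 FPKM. Among the ratios that overlapped, *Prelp*/*Ogn* was the tightest in the OR mice, at -0.98, -0.88 and -0.92 on the log2 scale, and it averaged -0.86 in the OP mice.

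**Figure D4:**
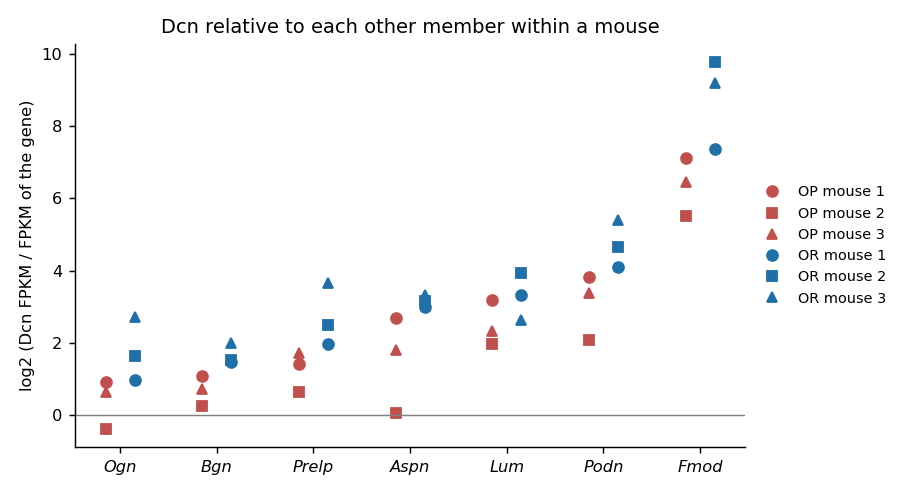
Log2 ratio of *Dcn* FPKM to the FPKM of each other member within a mouse, with OP mice in red, OR mice in blue and the mouse number given by the symbol. All blue points lie above all red points for every gene except *Lum*, by a narrow margin for *Ogn*.

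Of 10 other SLRP family genes listed, 4 were tested, 2 of them lower and 2 higher in OP, and 0 had an unadjusted p below 0.05. *Tsku* (tsukushi), a secreted inhibitor of BMP signalling, was the most abundant, between 13.6 FPKM in OR mouse 3 and 49.4 FPKM in OP mouse 3. *Optc* lay between 2.0 and 6.64 FPKM and *Chadl* between 1.3 and 5.51 FPKM. *Ecm2*, the neighbour of *Aspn*, was at 0.96, 1.35 and 0.98 FPKM in OP and at 1.86, 1.41 and 3.23 FPKM in OR (log2 fold change -0.56, adjusted p = 0.945 by limma-trend), and its groups did not overlap. Nor did those of *Chad*, below the filter and the other way round, at 0.35, 0.5 and 0.42 FPKM in OP and 0.09, 0.18 and 0.33 FPKM in OR. Both are named for this after their values were seen. *Kera* and *Epyc*, next to *Lum*, were listed at 0 in all mice but OR mouse 3, and *Omd*, next to *Ogn*, reached 0.08 FPKM at most.

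Of 22 genes of chondroitin and dermatan sulphate synthesis, 16 were tested, at a median of -0.20 for the log2 fold change, and 0 were called. Only 1 had an unadjusted p below 0.05 by limma-trend, against 3.53% of all genes tested, so this count is not read as a result about the list. The gene below 0.05, *Dse*, encodes the epimerase that turns chondroitin into dermatan sulphate. Its level was 1.31, 0.99 and 1.28 FPKM in OP and 2.28, 2.01 and 2.54 FPKM in OR (log2 fold change -0.58, adjusted p = 0.933 by limma-trend). The 3 most abundant genes of the list, *Fam20b*, *B3gat3* and *Chpf2*, had log2 fold changes of -0.08, -0.11 and 0.20. Of 7 keratan sulphate genes 6 were tested, 3 lower and 3 higher, with a median of -0.05 and 0 below an unadjusted p of 0.05 by limma-trend. Among these *B4galt1* was at 0.03, *B4galt4* at 0.05 and *Chst4* at -0.74.

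The RNA of matrix proteins that SLRPs bind was lower in OP as well, by differences that were not called. All 12 listed genes of collagens I, III, V, VI, XII and XIV, elastin and tenascin X were lower in OP, as were 70.1% of all genes tested, with a median log2 fold change of -0.86. In 10 of the 12 every OP mouse was below every OR mouse, against 6.81% of all genes, and the unadjusted limma-trend p of these 10 was below 0.05, against 3.53% of all genes. By limma-trend 0 were called. *Col3a1*, a fibrillar collagen and the most abundant of the list, measured 17.89, 17.2 and 18.85 FPKM in OP and 32.55, 30.24 and 40.71 FPKM in OR. *Col6a1* and *Col6a2*, chains of the beaded collagen to which decorin and biglycan bind, had log2 fold changes of -0.89 and -0.93. Several of these collagens were among the genes the study picked from the same mice.

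Of 18 growth factors and receptors linked to SLRPs, 16 were tested, and 11 of them were lower in OP, near the 70.1% of all genes. Their median log2 fold change was -0.39. *Tgfb3*, a TGF-β ligand, at -0.57 and *Ccn2*, a matricellular protein induced by TGF-β, at -0.71 had an unadjusted p below 0.05 by limma-trend, where 3.53% of all genes did, and 0 were called. *Tlr2*, a receptor of soluble biglycan, was at -0.03, *Lrp1* at -0.10 and *P2rx4* at -0.33. Of 11 proteases that can cut SLRPs, 5 were tested and all 5 were lower in OP, against 70.1% of all genes, with a median of -0.37 and 0 called. *Adamts1* at -1.14 and *Mmp2* at -1.03 had an unadjusted p below 0.05, against 3.53% of all genes, while *Bmp1*, which trims the propeptide of biglycan, was at -0.14 and *Mmp14* at -0.37.

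Of 24 other proteoglycan core proteins listed, 17 were tested and 16 of them were lower, against 70.1% of all genes. The median of their log2 fold changes was -0.37, 3 had an unadjusted p below 0.05, against 3.53% of all genes, and 0 were called. Those 3 were *Vcan* (versican) at -0.60, *Cspg4* at -0.59 and *Tgfbr3* (betaglycan) at -0.75. The most abundant ones were the syndecans *Sdc4* at 0.12 and *Sdc1* at -0.12, both of epithelial cells among others, and *Agrn* (agrin) at -0.27.

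Markers of fibroblasts, endothelium and macrophages were mostly lower in the same mice as the SLRP genes. In bulk colon, fewer cells of a type and less RNA per cell cannot be told apart. The 10 fibroblast markers, among them *Dpt*, *Tcf21* and *Islr*, were all lower in OP, as were 70.1% of all genes tested, with a median log2 fold change of -0.63. In 7 of the 10 every OP mouse was below every OR mouse, against 6.81% of all genes tested. *Pdgfra*, *Pdgfrb* and *Thy1* overlapped. The summed level of the 10 was 46.0 to 93.5 FPKM in OP and 106 to 208 FPKM in OR. The 10 blood endothelium markers, of which *Pecam1*, *Egfl7* and *Cldn5* were the most abundant, were all lower too (median -0.74), against the same 70.1%. In 6 of the 10 the groups did not overlap, and the sums were 18.1 to 27.6 FPKM in OP and 31.2 to 53.0 FPKM in OR. Of 10 macrophage markers 9 were lower (median -0.91), *C1qa* and *C1qb* among them and *Mertk* not, against 70.1% of all genes tested. In 8 of the 10 the groups did not overlap, but the sums did, at 57.1 to 132 FPKM in OP and 130 to 159 FPKM in OR. No marker of these 3 lists was at 0 in any mouse. Their part in the differences of the SLRP genes was not tested.

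The summed smooth muscle and fat markers overlapped between the groups. So did the summed macrophage markers, of which *Mertk*, the most abundant, was the only one higher in OP (log2 fold change 0.40). The 10 smooth muscle markers, led by *Acta2*, *Actg2* and *Tagln*, summed to 1576 to 2422 FPKM in OP and 1934 to 3520 FPKM in OR, and the median of their log2 fold changes was -0.32. The highest sum was that of OR mouse 1, the mouse in which *Ogn*, *Prelp*, *Podn* and *Fmod* were highest. The sum of OR mouse 2, 1934 FPKM, was below those of OP mice 1 and 2, 1940 and 2422 FPKM. In OR mouse 2 *Ogn* and *Prelp* were nevertheless above their levels in all OP mice. The 8 adipocyte markers, led by *Fabp4*, *Cfd* and *Cidec*, summed to 26.4 to 151 FPKM in OP and 80.5 to 386 FPKM in OR (median -0.83). *Adipoq*, *Plin1*, *Cfd*, *Lep* and *Retn* were listed at 0 in OP mouse 2, in which *Dcn* was lowest. OR mouse 1 had the highest sum but the lowest *Dcn* of the OR mice. The sums of OP mice 1 and 3, 151 and 146 FPKM, were above that of OR mouse 2, 80.5 FPKM, in which *Dcn* was higher. Without OP mouse 2 the log2 fold change of *Dcn* was -1.73. The part of the muscle and fat markers in the differences of the SLRP genes was not tested. The 10 epithelial markers, led by *Lgals4*, *Krt8* and *Krt19*, had a median of 0.09 and sums of 10449 to 13701 FPKM in OP and 10324 to 12999 FPKM in OR. Of the 6 mesothelial markers 3 were tested (*Upk1b*, *Upk3b* and *Msln*, median -0.28).

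**Figure D5:**
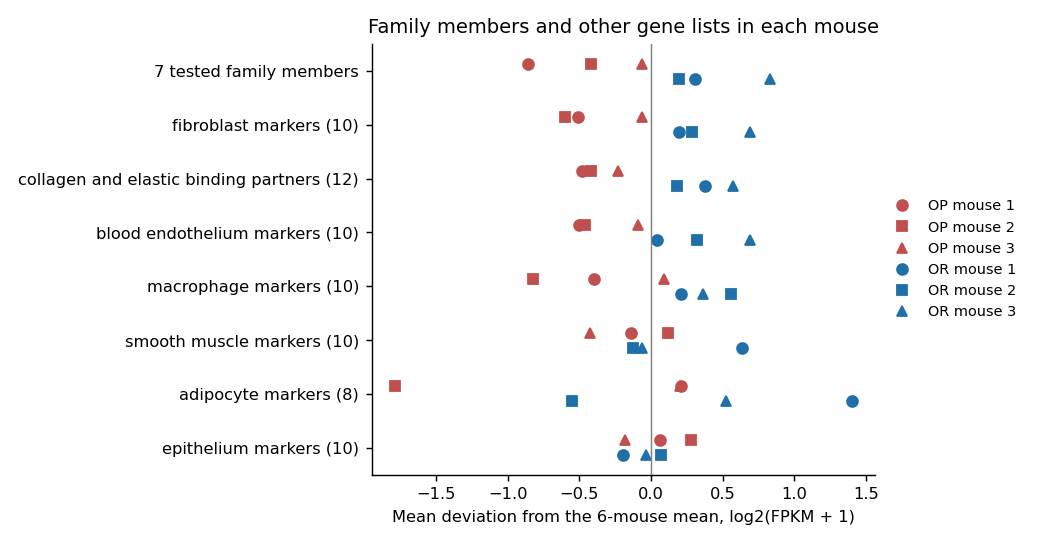
Average log2(FPKM + 1) of each list in every mouse after centring each gene over the 6 mice, with the number of genes in brackets, OP mice in red, OR mice in blue and the mouse number given by the symbol. The SLRP genes, the fibroblast, endothelium and macrophage markers and the matrix partners separate the groups, whereas the smooth muscle, adipocyte and epithelium markers do not.

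Set against the mean of the 10 fibroblast markers in the same mouse, *Dcn* was lower in every OP mouse than in every OR mouse. On the log2(FPKM + 1) scale it stood 2.73, 2.17 and 2.82 above the markers in OP and 3.53, 3.68 and 4.26 above them in OR, a difference of -1.25 (exact permutation p = 0.1, two-sided). Against the mean of the 12 matrix partners the difference of *Dcn* was -1.28, and these groups did not overlap either. Against the mean of the 10 smooth muscle markers the groups overlapped, with *Dcn* at -2.09, -3.01 and -1.28 in OP and at -1.36, -0.37 and 0.57 in OR (difference -1.74, exact permutation p = 0.2, two-sided). For *Bgn* the difference against the fibroblast markers was -0.27, for *Lum* -0.35, for *Ogn* 0.11 and for *Prelp* 0.19, and in these 4 genes the mice overlapped. The added 1 shrinks the change of low markers. *Pi16* was at -0.89 with it and -2.46 without it, and *Mfap5* at -1.27 and -2.17, while the most abundant marker, *Dpt*, was at -1.27 and -1.30. Every fibroblast marker lay further below 0 without the added 1, while *Dcn* went only from -2.03 to -2.08 and *Bgn* from -1.05 to -1.10. Their differences against these markers would therefore be less negative without it. A mean of the markers or partners without the added 1 was not computed. The size of these differences, and the sign of small ones such as that of *Bgn*, is therefore not settled. *Fmod*, at its low level, was above the OR values in every OP mouse when set against the fibroblast markers (difference 0.83). On the log2(FPKM + 1) scale *Fmod* itself differed by 0.05, so this value comes nearly wholly from the markers and says nothing about *Fmod*. *Aspn* and *Podn* overlapped.

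The genes most like the mean pattern of the 8 members were sought among 12446 other genes with a mean of at least 1 FPKM, by the root mean square distance of the mean-centred log2 values over the 6 mice. The nearest were *Pde4b* (a cAMP phosphodiesterase) at 0.04, *Igfbp7* at 0.08, *Pcolce* (which enhances the trimming of procollagen) at 0.09, *Cmtm3* at 0.10 and *Agt* (angiotensinogen) at 0.11. *Pcolce* measured 5.03, 6.06 and 8.29 FPKM in OP and 11.7, 9.19 and 16.72 FPKM in OR. For single members the nearest gene was *Ackr3* for *Bgn* at 0.03, *Clec3b* for *Dcn* at 0.21, *Rapgef3* for *Aspn* at 0.11, *Ffar4* for *Lum* at 0.21, *Cacnb2* for *Prelp* at 0.07 and *Ptgis* (prostacyclin synthase) for *Ogn* at 0.08. *Podn* and *Fmod* had *A430033K04Rik* and *Zfp954* nearest, both at 0.03. With *Fmod* below 0.5 FPKM in all mice, the added 1 flattens its profile, which ran only from -0.25 to 0.17. Its nearest gene and its distances to other members therefore say little about *Fmod*. *Ffar4*, a fatty acid receptor, shared with *Lum* its high value in OR mouse 3, at 42.55 FPKM against 5.55 to 11.21 FPKM in the other mice. Between members the distance was smallest for *Prelp* and *Ogn*, at 0.19, and largest for *Dcn* and *Fmod*, at 1.17.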

How the data were processed

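Colon RNA of 3 OP and 3 OR mice was used, with groups and replicate numbers taken from the sample labels. After read filtering in SOAPnuke and alignment to a mouse gene set in Bowtie2, the authors estimated gene levels in RSEM and deposited FPKM rounded to 2 decimals, 1 column per mouse. The submitters' processing notes also name HISAT2 2.0.4 and GRCm39, and the labels and methods give different versions of Bowtie2 and RSEM. The role of HISAT2 was not given in the sources used here. FPKM hold no read totals and RSEM estimates need not be whole reads, so depth and counting error are unknown. The study's own test, DESeq2, needs counts and was not run.

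Genes with at least 0.5 FPKM in at least 3 mice were compared by limma-trend on log2(FPKM + 1) (limma 3.58.1, R 4.3.3), which understates the change of low genes. Single values were compared by exact permutation tests over 20 arrangements (SciPy 1.17.1). The fit was tested on simulated data. Alternatives were scaling, trend, pseudocount, filters, array weights, the replicate number as a block and each mouse left out.

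The members and lists were chosen with earlier results of these data known. Named are the 8 members, the 3 most abundant genes of each list, the nearest patterns and genes singled out after their values were seen, some of them for an unadjusted p below 0.05. Promoters and gene order come from RefSeq, GRCm38.p6, another build than that of the authors, matched by symbol. Motifs were chosen after the values were seen. 1 marker list is not reported here.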

Additional observations from a re-analysis of the deposited data

How the results depend on the processing

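The count of members called lower in OP was 0 with all 6 mice and in each alternative, and 4 of the 7 tested had an unadjusted limma-trend p below 0.05, with 3 to 5 when each mouse was left out. Of 92 values for single members under the alternatives, 91 kept their direction and stayed uncalled, with adjusted p from 0.254 to 1.00, and *Aspn* turned to 0.10 without OP replicate 1. With each mouse left out its log2 fold change ran from -0.76 to 0.10. The count of all genes called lower in OP, 3, became 0 under median-of-ratios scaling, 0 when the pseudocount was 0.1, 0 when genes were kept from any value above 0, 0 when every mouse had to reach 1 FPKM, 5 with array weights and 0 to 1 with each mouse left out. With the replicate block it was 0, 5 members had an unadjusted p below 0.05 and the adjusted p of *Dcn* was 0.254. The correlation of same-numbered mice in their deviations from the group means was -0.14, -0.16 and 0.07, so the numbers were not taken as pairs. Of the 28 ratios between members, 7 separated the groups, and no share over pairs of other genes was computed. The count of 7 became 11 with a pseudocount of 1 and 7 to 13 with each mouse left out, 13 without OP mouse 1 and 13 without OR mouse 1. The cause was not tested. Without counts no counting error could be given, which bears most on *Fmod*, below 0.5 FPKM in all 6 mice.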
